A study of Mus musculus with 12 samples.

Results

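Epididymal white fat (epWAT) was compared between mice lacking C2orf74 (KO) and wild-type (WT) mice in 6 of the 12 RNA-seq libraries of the series. The 6 were chosen by their titles, KO mice C7, C34 and C695 against WT mice C75, C85 and C99, with 1 library per mouse; the other 6 libraries came from the subcutaneous fat of the same mice. Mice of both genotypes were 8 weeks old when a high-fat diet began and stayed on it for 12 weeks, so no library stood for lean fat. The labels name neither the KO allele, the strain nor whether the gene was removed in all tissues. Values are fragments scaled for gene length and library depth (FPKM) and are given in the order C7, C34, C695 for KO and C75, C85, C99 for WT. Recovered library depths were 15011093 to 17294388 reads in KO and 17574947 to 18263864 reads in WT.

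White fat stores triglyceride in adipocytes, which take up glucose and fatty acids, esterify them and release fatty acids again by lipolysis. In diet-induced obesity the epididymal pad is known for filling with macrophages, which gather around dying adipocytes, enlarge their lysosomes and take on a lipid-handling programme marked by Trem2, Gpnmb and Itgax. Between these cells lie fibroblast-like progenitors, endothelium, pericytes and a covering mesothelium. A bulk library mixes the RNA of all of them, so fewer cells of a type and less RNA per cell cannot be told apart in any value below.

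The library of mouse KO C7 stood apart and held transcripts of epididymis and sperm cells. The summed level of 18 epididymis markers was 338.9 FPKM in KO C7, 0.821 FPKM in KO C34, 9.77 FPKM in KO C695 and 0.216 to 0.443 FPKM in WT. Crisp1, an epididymal secretory protein gene, was at 219, 0.0817 and 6.3 FPKM in KO and 0.0398, 0.201 and 0 FPKM in WT. The protamine gene Prm1, expressed in maturing sperm, was at 49.2, 0 and 0.426 FPKM in KO and 0, 0.485 and 0 FPKM in WT. Of the 15 epididymis markers and 15 germ cell markers detected, 13 of each were highest in KO C7, and the epididymis sum in KO C695 was 2.88% of that in KO C7. KO C7 also had the highest values of Il6, an inflammatory cytokine gene, at 7.79, 0.214 and 0 FPKM in KO and 0.0465, 0.141 and 0.0451 FPKM in WT, and of Il1b at 15.5, 1.06 and 0.0349 and 0.355, 0.388 and 0.115 FPKM. Every comparison was therefore made with all 6 libraries and again without KO C7, which leaves 2 KO libraries against 3. KO C695 stayed in both.

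The mouse gene taken as the counterpart of C2orf74, 1700093K21Rik (ENSMUSG00000020286, chromosome 11, 23516203 to 23521155, minus strand, GRCm38), did not check the genotype in this tissue. It was at 0.0301, 0 and 0 FPKM in KO and 0, 0.142 and 0.0546 FPKM in WT. The ranges overlapped at 0, since WT C75 had none.

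With all 6 libraries, 0 of 12722 tested genes (0.0%) passed a limma test at a Benjamini-Hochberg adjusted p under 0.05, although the smallest adjusted p was 0.0533 and 3795 genes had an unadjusted p under 0.05. limma-voom on recovered reads also called 0 of 11123 genes. The KO values lay all above the WT values for 1221 genes (9.6%) and all below them for 3713 (29.2%). Without KO C7, 4244 of the 12722 genes had an unadjusted limma p under 0.05. At an adjusted p under 0.05, 338 genes (2.66%) rose and 1406 (11.1%) fell in KO. All 1744 had the same sign in the 6-library fit, which was largely fixed in advance because it reuses the libraries that chose them. KO C7, which did not enter the 5-library fit, lay on the same side of the WT mean for 1683 of them. The WT libraries behind that mean also chose the genes, and KO C7 counted in the choice of tested genes, so this number was favoured too. It was not set beside the same count over all tested genes. For 1571 of the 1744 there was no overlap between the 3 KO and the 3 WT values, a count that the choice also favours. The median gene was lower in KO by a log2 difference of -0.12 in the 5-library fit and was at 0.02 after upper-quartile scaling, which called 592 genes higher and 872 lower; quantile scaling called 641 and 886. With the subcutaneous libraries added to the fit and the mouse as a random block, 1856 genes passed with all 6 epWAT libraries (460 higher and 1396 lower) and 2621 without KO C7. The 1744 calls need 2 further libraries: with KO C695 or WT C99 also left out 0 genes passed, and with WT C75 left out 6 did. In what follows, rose and fell refer to the 5-library fit, and each log2 difference is KO minus WT on log2(FPKM + 1) with its standard error.

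**Figure D1:**
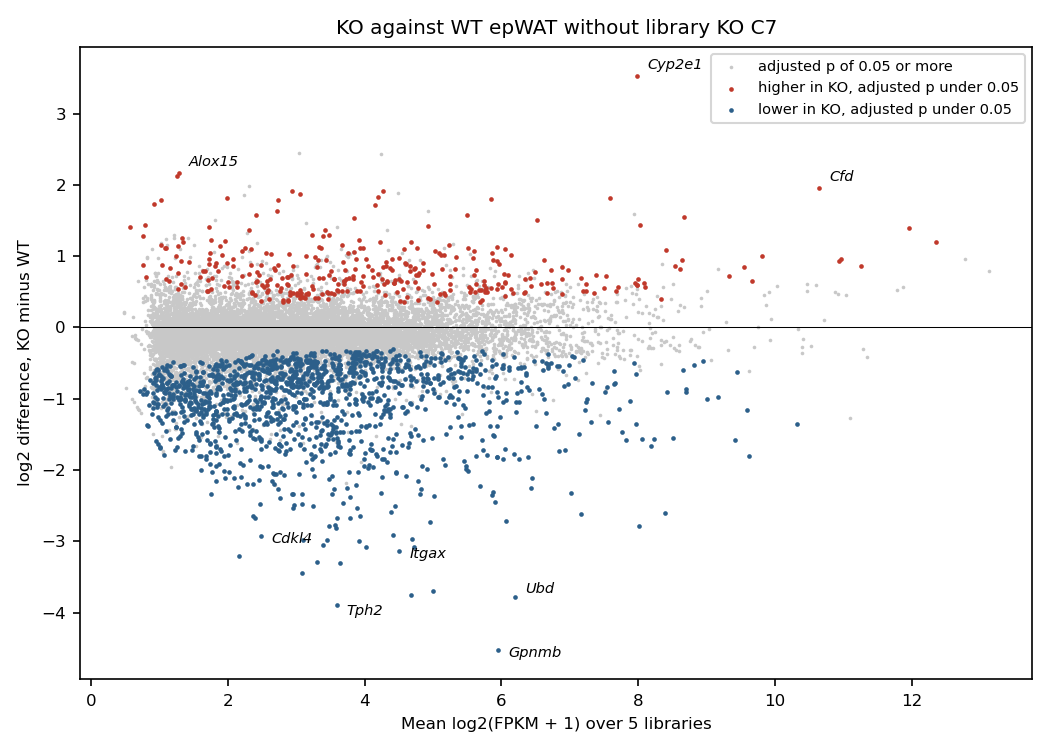
Each point is a gene, placed by its mean log2(FPKM + 1) over the 5 libraries left after KO C7 was removed (horizontal) and by its log2 difference, KO minus WT (vertical). Coloured points passed an adjusted p under 0.05, 338 higher (red) and 1406 lower (blue) of 12722, and the lower side reaches further, to -4.53 for Gpnmb against 3.53 for Cyp2e1.

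By log2 difference the largest rise among called genes was that of Cyp2e1. Cyp2e1, a cytochrome P450 that oxidises ethanol and other small molecules, was at 544, 1123 and 1075 FPKM in KO and 53.4, 152 and 103 FPKM in WT. Each KO library, C7 included, lay above all WT libraries, and Cyp2e1 rose by 3.53 ± 0.42 on the log2 scale (limma adjusted p = 0.0257). Alox15, a lipoxygenase that oxygenates polyunsaturated fatty acids and is expressed by some macrophages and eosinophils, was at 12.8, 4.15 and 6 FPKM in KO and 0.322, 0.417 and 0.268 FPKM in WT. It was highest in KO C7, and since all WT values were under 1 FPKM it passed the filter on low values through the KO libraries alone, so its call is not read as support.

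Rprml, a small membrane protein gene related to reprimo, had the smallest unadjusted p of the higher genes with 6 libraries. It was at 10.5, 11.1 and 13.1 FPKM in KO and 2.79, 3.38 and 3.47 FPKM in WT, a mean of 11.6 ± 1.37 against 3.21 ± 0.367 (SD, n = 3). Rprml rose by 1.63 ± 0.12 without KO C7 (limma adjusted p = 0.0186), and the subcutaneous pads averaged 12.0 FPKM in KO against 4.61 FPKM in WT. Enpp2, which encodes autotaxin, the enzyme that makes lysophosphatidic acid, was at 85.4, 102 and 106 FPKM in KO and 44.9, 47.2 and 51.9 FPKM in WT and rose by 1.10 ± 0.09 (limma adjusted p = 0.0206). The 2 genotypes did not overlap for any of these 4 genes.

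Further genes were among the 15 higher genes with the smallest p. Mogat1, which makes diacylglycerol from monoacylglycerol, was at 8.34, 11.6 and 14.4 FPKM in KO and 2.61, 3.07 and 3.48 FPKM in WT. Asns, the asparagine synthetase gene, was at 19.5, 22.3 and 24.2 and 10.5, 12 and 11.8 FPKM, and Sfxn1, a mitochondrial serine carrier, at 10.3, 14.6 and 15.6 and 5.88, 6.79 and 6.39 FPKM. All 3 rose, with log2 differences between 0.96 for Asns and 1.79 for Mogat1. Thbd, which encodes thrombomodulin, an anticoagulant receptor, was at 46.8, 79.9 and 91.5 and 23.2, 31.1 and 30.9 FPKM, and Atp2b4, a plasma membrane calcium pump, at 31.5, 42.7 and 41.4 and 17.9, 19.1 and 20.2 FPKM; both rose. Plagl1, an imprinted zinc finger gene, rose by 0.98 ± 0.08 without KO C7, while KO C7 itself, at 8.18 FPKM, lay nearer to the WT values of 6.06, 6.53 and 6.43. Slc2a13, a myo-inositol transporter, was at 2.48, 3.23 and 3.23 FPKM in KO and 0.674, 0.83 and 0.844 FPKM in WT, and it too passed the filter through KO alone.

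Tph2, a tryptophan hydroxylase of serotonin synthesis best known from brain, was among the genes that fell. Tph2 was at 3.59, 1.15 and 1.67 FPKM in KO and 29.9, 33 and 41.3 FPKM in WT, a mean of 2.13 ± 1.29 against 34.7 ± 5.89 (SD, n = 3), and its highest KO value was far below its lowest WT value. It fell by 3.89 on the log2 scale without KO C7 (SE 0.17; limma adjusted p = 0.0055). The subcutaneous pads of the same mice averaged 24.98 ± 7.89 FPKM for WT and 3.1 ± 0.732 FPKM for KO (SD, n = 3). Htr2b, a serotonin receptor gene, was at 0.595, 0.271 and 0.25 FPKM in KO and 2.81, 2.83 and 2.44 FPKM in WT and passed the filter on low values through WT alone, so its call is not read as support. Maob, which encodes a monoamine-degrading oxidase, was at 16, 22 and 26.1 and 12.2, 13.6 and 16.3 FPKM and rose. Of 14 serotonin pathway genes listed, these 3 and Maoa passed the filter on low values; Maoa had an adjusted p of 0.0509.

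The kinase gene Cdkl4 fell from 12.2, 11.6 and 11.2 FPKM in WT to 2.74, 0.789 and 0.545 FPKM in KO and had the smallest adjusted p without KO C7 (limma adjusted p = 0.00459, log2 difference -2.93 ± 0.11). Ubd, a ubiquitin-like modifier gene induced by interferon gamma and tumour necrosis factor, was at 68.1, 16.6 and 12.2 FPKM in KO and 241, 173 and 218 FPKM in WT. KO C7 had several times the value of the other KO libraries and still lay below all of WT. Tmem176a and Tmem176b, neighbouring ion channel-like genes of antigen-presenting cells, were at 11.7, 7.42 and 7.5 and 29.6, 20.1 and 17.2 FPKM in KO against 26.3, 26.3 and 28.2 and 56.3, 52 and 55.1 FPKM in WT. Both fell, Tmem176a by 1.72.

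Among the lower genes were several in which KO C7 also lay below all WT values, and for Ccr2 and Anxa1 the 3 KO values were close to each other. Ccr2, the receptor through which monocytes follow CCL2, was at 5.22, 4.72 and 4.72 FPKM in KO and 21.9, 13.8 and 20.2 FPKM in WT (log2 difference -1.75 ± 0.20; limma adjusted p = 0.0257). Anxa1, a phospholipid-binding regulator of inflammation, was at 249.8, 238 and 230.5 FPKM in KO and 459, 425 and 432 FPKM in WT, and Abca9, an ABC transporter, at 7.54, 7.49 and 5.85 and 14.7, 14.2 and 14.8 FPKM. Ear2, an eosinophil-associated ribonuclease also expressed by macrophages, was at 29.2, 20.4 and 17.6 and 65.8, 71.7 and 81.2 FPKM. Hmcn2, a hemicentin of basement membranes, was at 5.5, 3.92 and 4.48 FPKM in KO and 14.4, 17.4 and 14.1 FPKM in WT. All 5 fell, and with 6 libraries each had an unadjusted p between 1.9e-05 and 8.4e-05.

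**Figure D2:**
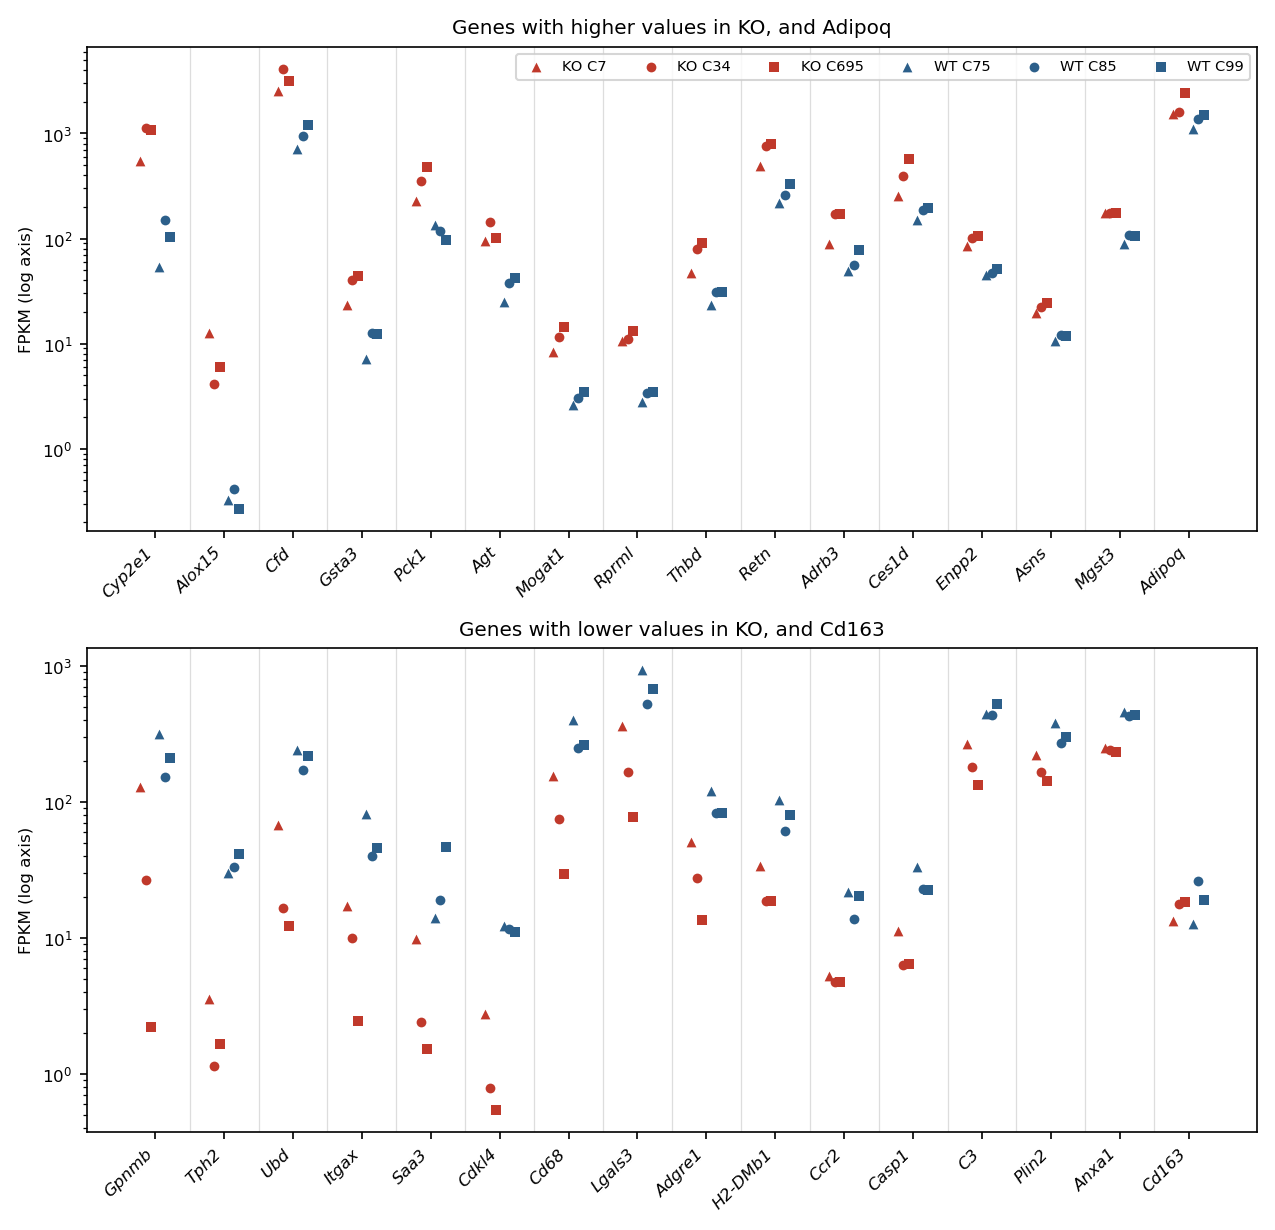
FPKM of 32 genes in each of the 6 epWAT libraries on a log axis, KO in red and WT in blue, with a marker shape for each mouse. In the upper panel the red points lie above the blue for each gene, for Adipoq only narrowly; in the lower panel they lie below for each gene but Cd163, and for Gpnmb, Itgax and Cd68 the red points are spread out from KO C7 down to KO C695.

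Macrophage genes were lower in KO. Of 24 tested macrophage identity genes, 21 fell and none rose without KO C7, against 11.1% of all genes that fell, and 19 had all KO values below all WT values, against 29.2%. Their median log2 difference was -1.73, or -1.39 with 6 libraries, where the medians of all genes were -0.12 and -0.10. Adgre1, which encodes F4/80, was at 50.3, 27.8 and 13.5 FPKM in KO and 121, 83 and 82.2 FPKM in WT. Cd68, a lysosomal membrane protein of macrophages, was at 155, 74.8 and 29.7 FPKM in KO and 400.2, 247 and 261 FPKM in WT and had a log2 difference of -2.62 ± 0.42 (limma adjusted p = 0.0259). In both genes KO C7 was the highest KO library and KO C695 the lowest. Mpeg1, a pore-forming protein gene of phagocytes, was at 88.1, 31.5 and 13.5 and 189.7, 103 and 144 FPKM; KO C7 nearly reached WT C85 there. Lyz2, which encodes lysozyme, was at 768, 461 and 297 and 1488, 1061 and 1375 FPKM, and the complement subunit gene C1qb at 212, 138 and 97.3 and 403, 326 and 325 FPKM.

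The spread inside KO had the same order in each of these genes. All 24 identity genes were highest in KO C7 and lowest in KO C695 among the KO libraries, an order that 33.6% of all tested genes had, and 23 of the 24 were highest in C75 among the WT libraries, against 44.6% of all genes. The summed level of the list was 2347 FPKM in KO C7, 1362 FPKM in KO C34 and 848.4 FPKM in KO C695, against 3336 to 4985 FPKM in WT. The list median with 6 libraries was -1.03 when KO C695 was left out.

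Genes of lipid-associated macrophages were among the largest differences. Of 22 tested, 16 fell and 1 rose (median log2 difference -1.54), and 2 rose after upper-quartile scaling. Trem2, the lipid-sensing receptor of these cells, was at 19.2, 7.16 and 1.52 FPKM in KO and 54, 28.4 and 33.7 FPKM in WT (log2 difference -3.08 ± 0.53; limma adjusted p = 0.0289). Gpnmb, a glycoprotein gene of lipid-laden macrophages named here after its values were seen, was at 128, 26.6 and 2.21 and 316, 151 and 210.1 FPKM, a range of 128 to 2.21 FPKM within KO. Itgax, which encodes CD11c and was also picked afterwards, was at 17.2, 10 and 2.47 and 81.6, 40 and 45.8 FPKM. Lgals3, the galectin-3 gene, was at 360.0, 165 and 77.8 and 928, 522 and 679 FPKM, and Lipa, which encodes the lysosomal acid lipase that frees lipid from engulfed droplets, at 91.4, 47.3 and 22.7 and 220.2, 130.5 and 142 FPKM. For each of these 5 genes the 3 KO values lay below the 3 WT values. The member that rose without that scaling was Lpl, the lipoprotein lipase gene, which adipocytes also express, at 1036, 1041 and 1095 FPKM in KO and 588, 678 and 781 FPKM in WT.

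**Figure D3:**
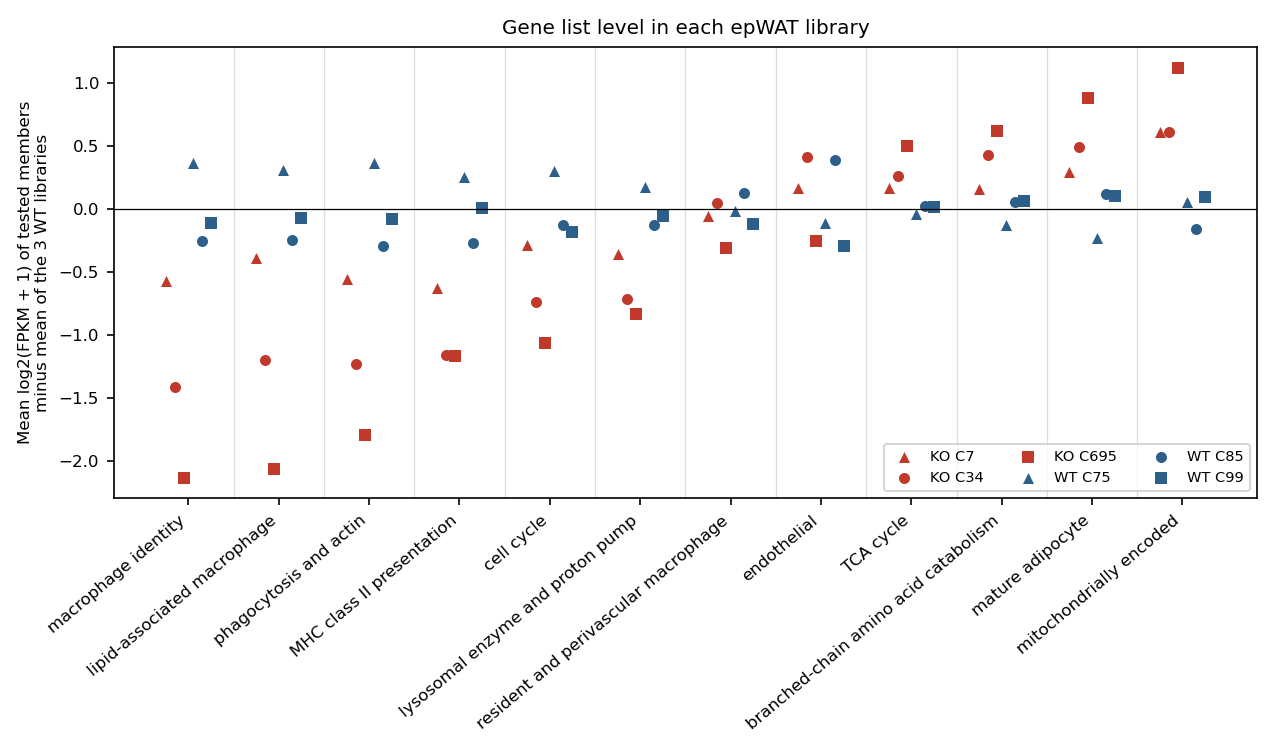
Mean log2(FPKM + 1) of the tested members of 12 gene lists in each epWAT library, minus the mean of the 3 WT libraries, KO in red and WT in blue. For macrophage identity genes KO C7 sits nearest to WT and KO C695 farthest below it, while for mature adipocyte and mitochondrially encoded genes KO C695 is the highest; resident macrophage and endothelial genes show mixed red and blue points.

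Markers of the other macrophage state had a median close to that of all genes. Of 17 tested markers of resident and perivascular macrophages, 0 passed in the 5-library limma fit, and limma-voom called 0 of 16. An unadjusted limma p under 0.05 was found for 7 of the 17, against 4244 of all 12722 tested genes. The median log2 difference was -0.14, or 0.03 after upper-quartile scaling and -0.30 to -0.07 with a WT library left out. Mrc1, the mannose receptor gene, was at 34.5, 34 and 17.2 FPKM in KO and 56.1, 41.3 and 41.4 FPKM in WT with an adjusted p of 0.106. Cd163, the haemoglobin scavenger receptor gene, was at 13.4, 17.8 and 18.2 and 12.8, 26.3 and 19 FPKM, and the ranges overlapped. Timd4, a receptor for dying cells on long-lived resident macrophages, was at 1.61, 1.57 and 1.2 and 0.753, 0.733 and 0.378 FPKM (limma adjusted p = 0.0906). All WT values of Timd4 were under 1 FPKM. It passed the filter on low values through KO alone, so its position above WT is not read as support. Whether the 2 macrophage lists differ in their response was not tested.

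Antigen presentation genes were lower as well. Of 12 tested genes of MHC class II presentation, 8 fell and 0 rose, and the median log2 difference was -1.49. Cd74, the invariant chain gene, was at 555, 336 and 367 FPKM in KO and 1288, 808 and 1130.0 FPKM in WT. H2-Ab1, a class II chain gene, was at 227, 131 and 159 and 561, 349 and 501 FPKM, and H2-DMb1, part of the peptide-loading complex, at 33.8, 18.7 and 18.8 and 103, 61.1 and 79.5 FPKM. Ciita, the master activator of these genes, was at 3.01, 1.85 and 1.95 FPKM in KO and 9.92, 5.38 and 7.68 FPKM in WT. All 4 fell and their genotypes did not overlap. Of the 12 genes 4 were lowest in KO C695.

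Pattern recognition and phagocyte genes moved the same way. Of 17 Toll-like receptor and adaptor genes 14 fell, among them Tlr8, an endosomal RNA sensor, at 8.81, 5.58 and 2.51 FPKM in KO and 23.9, 16.9 and 18.4 FPKM in WT. Of 20 phagocytosis and actin genes 18 fell (median -1.62). Of 17 genes of the phagocyte NADPH oxidase and iron handling 9 fell and 1, the ceruloplasmin gene Cp, rose. Cybb, which encodes the oxidase's catalytic subunit, was at 18.7, 9.98 and 4.78 and 43.8, 26.3 and 31.8 FPKM. The part that the lower summed level of macrophage identity genes, given above, has in these lists was not tested.

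Lysosomal genes fell together. Of 33 tested genes for lysosomal enzymes and the proton pump, 25 fell and 0 rose, or 16 fell after upper-quartile scaling, and the median log2 difference was -0.72. Gusb, which encodes beta-glucuronidase, was at 39.2, 27 and 23.2 FPKM in KO and 78.3, 58.8 and 63.4 FPKM in WT. Hexa, a hexosaminidase subunit gene, was at 91.4, 61.9 and 58 and 166, 118 and 137 FPKM, and Ctsz, a cathepsin gene, at 227, 150.4 and 135 and 439.9, 304 and 364 FPKM. The KO values were below WT in all 3. Mitf, a transcription factor of the family that switches on lysosomal genes, was at 4.59, 2.87 and 2.2 and 8.68, 6.33 and 7.17 FPKM and fell with Tfeb and Tfe3. That family binds an E-box core with flanking bases, and the 8 letters TCACGTGA, which read the same on both strands, were looked for in the RefSeq promoter windows of the list (250 bases before to 50 after each start, GRCm38.p6). Of 25 genes with a window, 4 held the letters, against 1.01% of 27025 windows and 2.01% of 9226 windows of tested genes. Stretches of 100 bases around them are shown, 5′ to 3′ on the gene's strand, with the letters in capitals, because they are the members of the list that hold them; the genes' values follow.
Gla, chrX:134601156-134601255, minus strand: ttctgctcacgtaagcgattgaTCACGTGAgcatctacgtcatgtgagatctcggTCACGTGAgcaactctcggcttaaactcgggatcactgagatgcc
Atp6v1a, chr16:44139338-44139437, minus strand: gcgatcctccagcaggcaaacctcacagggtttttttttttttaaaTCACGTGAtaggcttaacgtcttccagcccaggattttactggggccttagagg
Mcoln1, chr8:3500427-3500526, plus strand: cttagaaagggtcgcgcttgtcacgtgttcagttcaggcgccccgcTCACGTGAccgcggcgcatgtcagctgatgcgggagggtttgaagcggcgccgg
Atp6v0d1, chr8:105566015-105566114, minus strand: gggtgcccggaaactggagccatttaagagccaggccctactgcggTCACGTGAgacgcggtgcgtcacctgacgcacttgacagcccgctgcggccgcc

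The 4 genes that hold the letters all had KO values below WT, and 2 of them passed the test. In the whole list 29 of 33 genes had KO values all below WT and 25 fell, against 29.2% and 11.1% of all tested genes. The 4 genes therefore do not stand out from their list. Gla, the alpha-galactosidase gene, whose stretch holds the letters in more than 1 place, was at 7.97, 3.72 and 2.69 FPKM in KO and 16.9, 9.45 and 11.1 FPKM in WT and fell (log2 difference -1.65 ± 0.25; limma adjusted p = 0.0257). Atp6v1a, a catalytic proton pump subunit gene, was at 35.8, 24.8 and 23.5 and 60.7, 40.1 and 46.8 FPKM and fell. Mcoln1, which encodes a lysosomal calcium channel, was at 7.11, 6.32 and 6.03 and 8.63, 7.92 and 7.99 FPKM with an adjusted p of 0.0503, and Atp6v0d1, another pump subunit gene, at 70.6, 67 and 69.3 and 74, 73.7 and 79.8 FPKM with an adjusted p of 0.261. A match of letters is a description and not a bound site. The letters GAGGAAGT, a form of the myeloid factor PU.1's motif searched on both strands, stood in 2 of 18 windows of macrophage identity genes, Ctss and C1qc, against 3.28% of all windows.

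Inflammatory ligands gave a mixed picture, and KO C7 stood apart in several of them. Of 19 chemokine genes 6 fell and 0 rose without KO C7, with a median log2 difference of -0.79, and the median was -0.43 with 6 libraries. Without KO C695 these medians were -0.34 and -0.0036, and without WT C75 the latter was -0.21. Ccl6 and Ccl9, chemokines that macrophages express, were at 136, 125 and 65.2 and 74.4, 50.7 and 23.6 FPKM in KO against 228, 216 and 241 and 144, 106 and 134 FPKM in WT. Ccl3 was at 8.52, 0.981 and 0.087 FPKM in KO and 6.26, 5.27 and 3.72 FPKM in WT, so it fell without KO C7 although KO C7 held the highest value of all. The monocyte attractant gene Ccl2 was at 98, 34.9 and 6.73 and 47.2, 27.8 and 28.6 FPKM, and Cxcl1, a neutrophil attractant named after its values were seen, at 87, 4.38 and 0.604 and 2.44, 2.21 and 0.876 FPKM. Neither passed, with adjusted p of 0.313 and 0.917. S100a9, a neutrophil calprotectin subunit gene, was at 58.7, 9.86 and 0.383 and 0.54, 1.2 and 0.734 FPKM and did not pass either.

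Among cytokine and inflammasome genes 7 of 14 fell and 0 rose. Casp1, the inflammasome protease gene, was at 11.2, 6.3 and 6.45 FPKM in KO and 33.1, 22.8 and 22.4 FPKM in WT (log2 difference -1.85 ± 0.18; limma adjusted p = 0.0257), and its adaptor gene Pycard at 1.13, 0.73 and 0.543 and 2.81, 1.77 and 2.16 FPKM. Il1rn, which encodes the interleukin-1 receptor antagonist, was at 6.87, 2.26 and 0.169 and 11.3, 5.02 and 8.66 FPKM and fell, though KO C7 overlapped WT. Tnf was at 2.84, 0.423 and 0.284 and 2.07, 1.08 and 1.1 FPKM with an adjusted p of 0.0646. Saa3, an acute-phase serum amyloid gene, was at 9.9, 2.42 and 1.53 FPKM in KO and 14, 19.1 and 46.8 FPKM in WT and fell by 3.05. Of 22 interferon-stimulated genes 2, Ifit2 and Irf9, fell, near the 11.1% of all genes that fell, and 0 did after upper-quartile scaling. All 22 had a negative log2 difference without KO C7, as had 8540 of the 12722 tested genes. Their median was -0.31 against -0.12 for all genes. An unadjusted limma p under 0.05 was found for 7 of the 22, near the share of all tested genes (4244 of 12722).

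Complement genes gave calls in both directions. Of 16 tested, 6 fell and 1 rose, or 4 fell and 2 rose after upper-quartile scaling. The gene that rose without that scaling was Cfd, which encodes adipsin, the adipocyte protease of the alternative pathway, at 2521, 4107 and 3172 FPKM in KO and 713, 954 and 1201 FPKM in WT (log2 difference 1.95 ± 0.26; limma adjusted p = 0.0257). C3, whose product the alternative pathway cleaves, was at 267, 182 and 133 FPKM in KO and 441, 432 and 524 FPKM in WT and fell by 1.57. The receptor genes C3ar1 and C5ar1 were at 24.9, 10.8 and 3.99 and 25.6, 16.7 and 9.56 FPKM in KO against 55.7, 36.9 and 38 and 45.1, 35.1 and 35.2 FPKM in WT, and Serping1, which encodes the C1 inhibitor, at 179, 127 and 122 and 235, 239.6 and 228 FPKM; all 3 fell.

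Mature adipocyte genes were higher in KO. Of 23 tested, 7 rose and 0 fell without KO C7, against 2.66% of all genes that rose, and 15 had all KO values above all WT values, against 9.6%. The median log2 difference was 0.68, or 0.51 with 6 libraries. Adrb3, the adipocyte beta-adrenergic receptor gene, was at 89.7, 171 and 170.1 FPKM in KO and 49.2, 56.3 and 77.5 FPKM in WT (2.82-fold on the FPKM + 1 scale; limma adjusted p = 0.0257). Plin1, the lipid droplet coat gene of adipocytes, was at 406, 508 and 597 and 287, 317 and 337 FPKM. Car3, a carbonic anhydrase abundant in fat, was at 4295, 5497 and 9301 and 2330.0, 2859 and 3030.0 FPKM, and Adig, the adipogenin gene, at 112, 148 and 142 and 64.5, 78.7 and 82.5 FPKM. KO C7 was the lowest KO library in 18 of the 23 genes and KO C695 the highest in 16, against 25.9% and 26.8% of all tested genes.

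Several central adipocyte genes did not pass. Adipoq, the adiponectin gene, was at 1529, 1611 and 2442 FPKM in KO and 1108, 1361 and 1503 FPKM in WT, with KO C7 just above WT C99 (adjusted p = 0.146, limma). Pparg, the adipogenic nuclear receptor gene, was at 59.2, 83.4 and 106 and 60.2, 75.4 and 80.3 FPKM, and Cd36, a fatty acid carrier gene, at 1258, 1312 and 1250.0 and 1297, 1353 and 1246 FPKM. Lep, the leptin gene, was at 1163, 1176 and 1133 and 1292, 1624 and 1570.0 FPKM; its KO values were all below WT, with an adjusted p of 0.155. Slc2a4, the insulin-responsive glucose transporter gene, was at 40, 40.9 and 75.5 and 20.5, 27.6 and 28.2 FPKM, with KO above WT and an adjusted p of 0.0576.

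Of 18 tested genes for secreted adipokines, 3 rose and 2 fell. Retn, the resistin gene, was at 486, 759.6 and 799 FPKM in KO and 218, 261 and 328 FPKM in WT (log2 difference 1.55 ± 0.19; limma adjusted p = 0.0257). Agt, which encodes angiotensinogen, was at 94, 143 and 102 and 24.8, 37.3 and 42.1 FPKM and rose by 1.80 ± 0.26. Metrnl, a meteorin-like hormone gene that macrophages also express, was at 30.5, 17.4 and 13.7 and 71, 49.4 and 55.5 FPKM and fell, as did Saa3. In subcutaneous fat the mean of Retn was 544.3 FPKM in KO and 488.8 FPKM in WT; whether the KO difference varies between the pads was not tested.

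Lipid storage and release genes rose together in part. Of 18 lipolysis and adrenergic genes 5 rose and 0 fell, among them Lipe, the hormone-sensitive lipase gene, at 193, 225 and 272 FPKM in KO and 127, 163 and 162 FPKM in WT, and Pde3b, the phosphodiesterase through which insulin restrains lipolysis, at 42, 48.8 and 58.6 and 22.1, 29.4 and 26.8 FPKM. Pnpla2, the triglyceride lipase gene, was at 582, 765 and 847 and 358, 576 and 459 FPKM with an adjusted p of 0.0614. Of 24 genes for fatty acid and triglyceride synthesis 5 rose and 0 fell, among them Acaca, the acetyl-CoA carboxylase gene, at 18.7, 23.6 and 24.8 and 13.2, 15 and 16.5 FPKM, and Srebf1, a lipogenic transcription factor gene, at 69.9, 80.3 and 91 and 56.4, 51.7 and 57.4 FPKM. Fasn, the fatty acid synthase gene, overlapped between genotypes at 264, 318 and 421 and 275, 311 and 304 FPKM.

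The droplet coat genes went in opposite directions. Plin4, a coat gene of adipocytes, was at 732, 809 and 939 FPKM in KO and 457, 536 and 602 FPKM in WT and rose by 0.72 ± 0.16. Plin2, the coat gene of other lipid-laden cells including foamy macrophages, was at 219, 164 and 143 and 382, 269 and 299 FPKM and fell by 1.02. Pck1, the enzyme gene of glyceroneogenesis, was at 228, 353 and 476 FPKM in KO and 134, 117 and 97.8 FPKM in WT (log2 difference 1.82 ± 0.19; limma adjusted p = 0.0257). Among uptake genes, Lpl rose while Fabp5, a fatty acid-binding protein gene expressed by macrophages as well, was at 70.6, 55.1 and 62.8 and 95.7, 82.9 and 86.4 FPKM and fell. Of the 19 genes of uptake and glyceroneogenesis 3 rose and 4 fell, and after upper-quartile scaling 4 rose and 0 fell.

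Insulin signalling genes included 6 of 23 that rose and 0 that fell. Insr, the insulin receptor gene, was at 11.6, 14.2 and 12.4 FPKM in KO and 8.77, 9.37 and 9.94 FPKM in WT, and Irs1, its substrate, at 2.06, 3.36 and 3.22 and 1.63, 1.73 and 1.77 FPKM. Gys1, a glycogen synthase gene, was at 19.6, 24.9 and 30.2 and 13.8, 14.2 and 16.3 FPKM. For Irs1, KO C7 lay much nearer to WT than the other KO libraries did. The list median was 0.36 with 6 libraries and 0.17 with KO C695 left out.

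Mitochondrial genes were higher in KO by small amounts. Of 55 nuclear genes for the respiratory chain, 8 rose and 0 fell, and 39 had KO all above WT. Among all tested genes 2.66% rose, 11.1% fell and 9.6% had KO all above WT. After upper-quartile scaling 14 of the 55 rose, against 592 of all 12722. The median log2 difference of the list was 0.28, or 0.17 without KO C695 as well. Cyc1, the cytochrome c1 gene, was at 109.7, 129 and 142 FPKM in KO and 86.4, 93.5 and 96.2 FPKM in WT, and Ndufb9, a complex I subunit gene, at 189.5, 211 and 243 and 150.1, 154 and 158 FPKM. Of 23 tricarboxylic acid cycle genes 20 had KO all above WT, but 6 rose by the test and 16 did after upper-quartile scaling. Of 23 genes for fatty acid oxidation 4 rose and 0 fell (7 rose after upper-quartile scaling), among them Cpt2, the inner carnitine acyltransferase gene, at 54.6, 60.2 and 75.8 and 41.8, 45.2 and 46.4 FPKM. KO C695 was the highest KO library for 54 of the 55 respiratory chain genes, against 26.8% of all tested genes.

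Genes encoded in the mitochondrial genome had a larger median, 0.91. Of 12 tested, 5 rose and 0 fell, and 10 had KO all above WT. mt-Nd5, a complex I subunit gene, was at 2647, 2763 and 3210.0 FPKM in KO and 1473, 1415 and 1710.0 FPKM in WT, and mt-Nd6, the subunit read from the other strand, at 1235, 1248 and 1487 and 685, 609.8 and 755 FPKM. The share of summed FPKM from mitochondrial transcripts, which can also follow RNA quality, was 10.8%, 11.5% and 13.9% in KO and 6.98%, 7.18% and 8.12% in WT; its part in the other differences was not tested. mt-Co2 rose as well but was listed at 81, 72.6 and 103 and 56.4, 38.7 and 39.9 FPKM, far below mt-Nd5; near-identical nuclear copies of some mitochondrial genes can take their reads, so its level is uncertain.

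Genes for the catabolism of branched-chain amino acids, which adipocytes use as a source of acetyl-CoA, were higher in KO. Of 22 tested genes 11 rose and 0 fell, where 2.66% of all genes rose and 11.1% fell. After upper-quartile scaling 15 rose (median 0.52, without that scaling). Bcat2, the mitochondrial aminotransferase of the first step, was at 22.1, 31.2 and 37.5 FPKM in KO and 17.9, 20.2 and 20.2 FPKM in WT. Dbt, a subunit of the branched-chain dehydrogenase, was at 20.9, 27.4 and 30.7 and 16.1, 19.5 and 17.7 FPKM, and Ivd, isovaleryl-CoA dehydrogenase of the leucine branch, at 32.6, 45.9 and 54.5 and 19.2, 25.4 and 26 FPKM. Aldh6a1 of the valine branch was at 51.3, 64 and 79 and 30.8, 37.9 and 39.4 FPKM (log2 difference 0.97 ± 0.15; limma adjusted p = 0.0257). KO C7 was the lowest KO library in 21 of the 22 genes, against 25.9% of all tested genes.

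Carboxylesterase and xenobiotic enzyme genes included 6 of 19 that rose and 1 that fell, or 0 that fell after upper-quartile scaling. Ces1d, a carboxylesterase that hydrolyses triglyceride in fat, was at 254, 394 and 569.5 FPKM in KO and 149.6, 185 and 193 FPKM in WT. Gsta3, a glutathione transferase gene, was at 23.5, 40.2 and 43.6 and 7.08, 12.5 and 12.2 FPKM and rose by 1.92 ± 0.24. Mgst3, a microsomal glutathione transferase gene outside the list, had nearly equal KO values at 174, 176 and 176 FPKM against 88.9, 107 and 105 FPKM in WT. Ephx1, an epoxide hydrolase gene, was at 52.4, 33.5 and 55.1 and 84, 90.3 and 89.5 FPKM and fell. In a separate list of 27 antioxidant genes 2 rose and 2 fell, or 3 rose and 0 fell after upper-quartile scaling. The median log2 difference of that list was -0.02. Among its members Gpx3, the secreted glutathione peroxidase gene, was at 272, 236 and 217 and 129.7, 167 and 116 FPKM and rose. Nfe2l2, the antioxidant transcription factor NRF2, was at 26.5, 22.7 and 22.6 and 34.2, 31.5 and 32.9 FPKM and fell (limma adjusted p = 0.0522 after upper-quartile scaling).

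Matrix genes were lower where they differed. Of 23 collagen and crosslinking genes 5 fell and 0 rose, and of 29 matrix proteins and proteases 10 fell and 0 rose; after upper-quartile scaling 3 and 6 fell. Lum, the lumican gene, was at 62, 24.9 and 37.1 FPKM in KO and 104, 87.3 and 78.1 FPKM in WT (log2 difference -1.52 ± 0.20; limma adjusted p = 0.0257). Col6a2, a chain of the collagen VI that surrounds adipocytes, was at 130.4, 99.7 and 98.2 and 170.4, 151 and 169 FPKM, and Mmp3, the stromelysin gene, at 2.18, 0.835 and 0.703 and 6.64, 9.16 and 4.74 FPKM. Col1a1 was at 239.5, 91 and 53.3 and 189.5, 134 and 113 FPKM, so that KO C7 was above and the other KO libraries below WT. The collagen list's median with 6 libraries was -0.36, and -0.17 without KO C695; that of matrix proteins and proteases without KO C7 was -0.32, and -0.18 without KO C695 as well.

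The remaining cell types were described by the same counts. Of 23 progenitor genes 1, the transcription factor gene Ebf1, rose and 0 fell; Pdgfra, the progenitor receptor gene, was at 6.7, 7.21 and 4 FPKM in KO and 9.21, 7.96 and 7.2 FPKM in WT. Of 19 endothelial genes 0 passed with limma (1 at an unadjusted p under 0.05; 0 of 18 with limma-voom) and 0 had genotypes that did not overlap, with Pecam1 at 30.5, 42.4 and 22.1 and 27.7, 38.5 and 22.8 FPKM. Of 11 pericyte and smooth muscle genes 2 rose, among them Myh11, the smooth muscle myosin gene, at 9.2, 11.3 and 10.7 and 5.7, 6.98 and 5.83 FPKM. Of 13 mesothelial genes 1 fell (0 after upper-quartile scaling), Aldh1a2, a retinoic acid synthesis enzyme, at 9.63, 7.18 and 3.53 and 19.3, 11.5 and 13.2 FPKM. Of 8 lymphocyte genes 2 fell and 1 rose, or 1 fell after upper-quartile scaling; Il7r, the interleukin-7 receptor gene, was at 11.6, 3.77 and 1.1 and 30.6, 17.2 and 26 FPKM and Ighm, the immunoglobulin M gene, at 456, 512 and 674 and 346, 261 and 316 FPKM. Of 8 neutrophil and mast cell genes 0 passed with limma (1 at an unadjusted p under 0.05; 0 of 5 with limma-voom). The 5 tested red cell genes had 0 calls by both tools and 0 at an unadjusted p under 0.05, and their sums overlapped between genotypes. The summed level of 10 skeletal muscle markers was higher in KO, at 46.8 to 63.8 FPKM against 16.7 to 39.3 FPKM in WT, and 7 of the 10 stayed under the filter on low values; its part in the mitochondrial and other differences was not tested.

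Proliferation genes were lower. Of 28 tested cell cycle genes 18 fell and 0 rose, or 11 fell after upper-quartile scaling, and the median log2 difference was -0.96. Top2a, a topoisomerase of dividing cells, was at 3.1, 2.07 and 1.35 FPKM in KO and 5.7, 4 and 3.84 FPKM in WT, and Mcm3, a replication helicase subunit gene, at 5.67, 3.65 and 2.54 and 11.5, 7.13 and 7.62 FPKM. The order of KO libraries was that of the macrophage list, with 27 of the 28 highest in KO C7 and lowest in KO C695, and the median with 6 libraries was -0.51 without KO C695.

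Sterol and stress genes were lower by smaller amounts, with median log2 differences of -0.33 and -0.27 against -0.12 for all genes. After upper-quartile scaling these medians were -0.16 and -0.10 against 0.02. Among all tested genes 11.1% fell, and 872 of 12722 did after that scaling. Of 27 sterol synthesis and uptake genes 11 fell and 0 rose, but after upper-quartile scaling 4 fell and 1 rose. Dhcr7, an enzyme of the last steps to cholesterol, was at 5.06, 4.48 and 4.03 FPKM in KO against 8.49, 7.86 and 7.47 FPKM in WT and fell. The list also holds Soat1, which esterifies cholesterol in macrophages, at 6.86, 2.86 and 1.19 and 17.3, 10.9 and 13.5 FPKM, and Abcg1, a cholesterol exporter, at 21.7, 14.7 and 13 and 40.2, 23.8 and 30.9 FPKM; both fell. Of 25 unfolded protein and integrated stress response genes 6 fell and 1, Asns, rose; 3 fell after upper-quartile scaling. Sdf2l1, an endoplasmic reticulum chaperone partner gene, was at 17, 16 and 11.4 FPKM in KO and 33, 31.4 and 33.2 FPKM in WT, and Atf3, a stress-induced transcription factor gene, at 42.9, 12.8 and 3.09 and 76.9, 42 and 59.3 FPKM. Both fell.

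Hormone-related, brown fat and ribosomal genes were set beside all tested genes, of which 2.66% rose and 11.1% fell. Of 10 tested genes for sex steroid receptors and enzymes 1, Srd5a3, fell, or 1 rose and 0 fell after upper-quartile scaling. Esr1, the estrogen receptor gene, was at 3.75, 2.22 and 2.78 FPKM in KO and 2.16, 4.36 and 2.33 FPKM in WT with an adjusted p of 0.743. Hsd11b1, which regenerates active glucocorticoid and was counted in the same list, was at 17.9, 26.6 and 16.9 and 11.8, 16.8 and 13.6 FPKM. Its KO values lay above WT, by a narrow margin, and it did not pass. Of 22 glucocorticoid and circadian genes 0 passed with limma (1 at an unadjusted p under 0.05; 0 of 18 with limma-voom). Of 11 brown and beige fat genes 3 fell and 0 rose, among them Otop1, a proton channel gene, at 1.74, 0.89 and 0.736 and 5.82, 4.79 and 4.57 FPKM. Ucp1, the uncoupling protein gene of brown fat, was at most 0.103 FPKM in any library and was not tested. Of 39 cytosolic ribosomal protein genes 1 fell (0 after upper-quartile scaling). An unadjusted limma p under 0.05 was found for 26 of the 39, against 4244 of all 12722 tested genes. All 39 had a negative log2 difference without KO C7. Their median was -0.32 against -0.12 for all genes, or -0.145 against 0.02 after upper-quartile scaling. Many of these genes have processed copies that can share their reads.

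**Figure D4:**
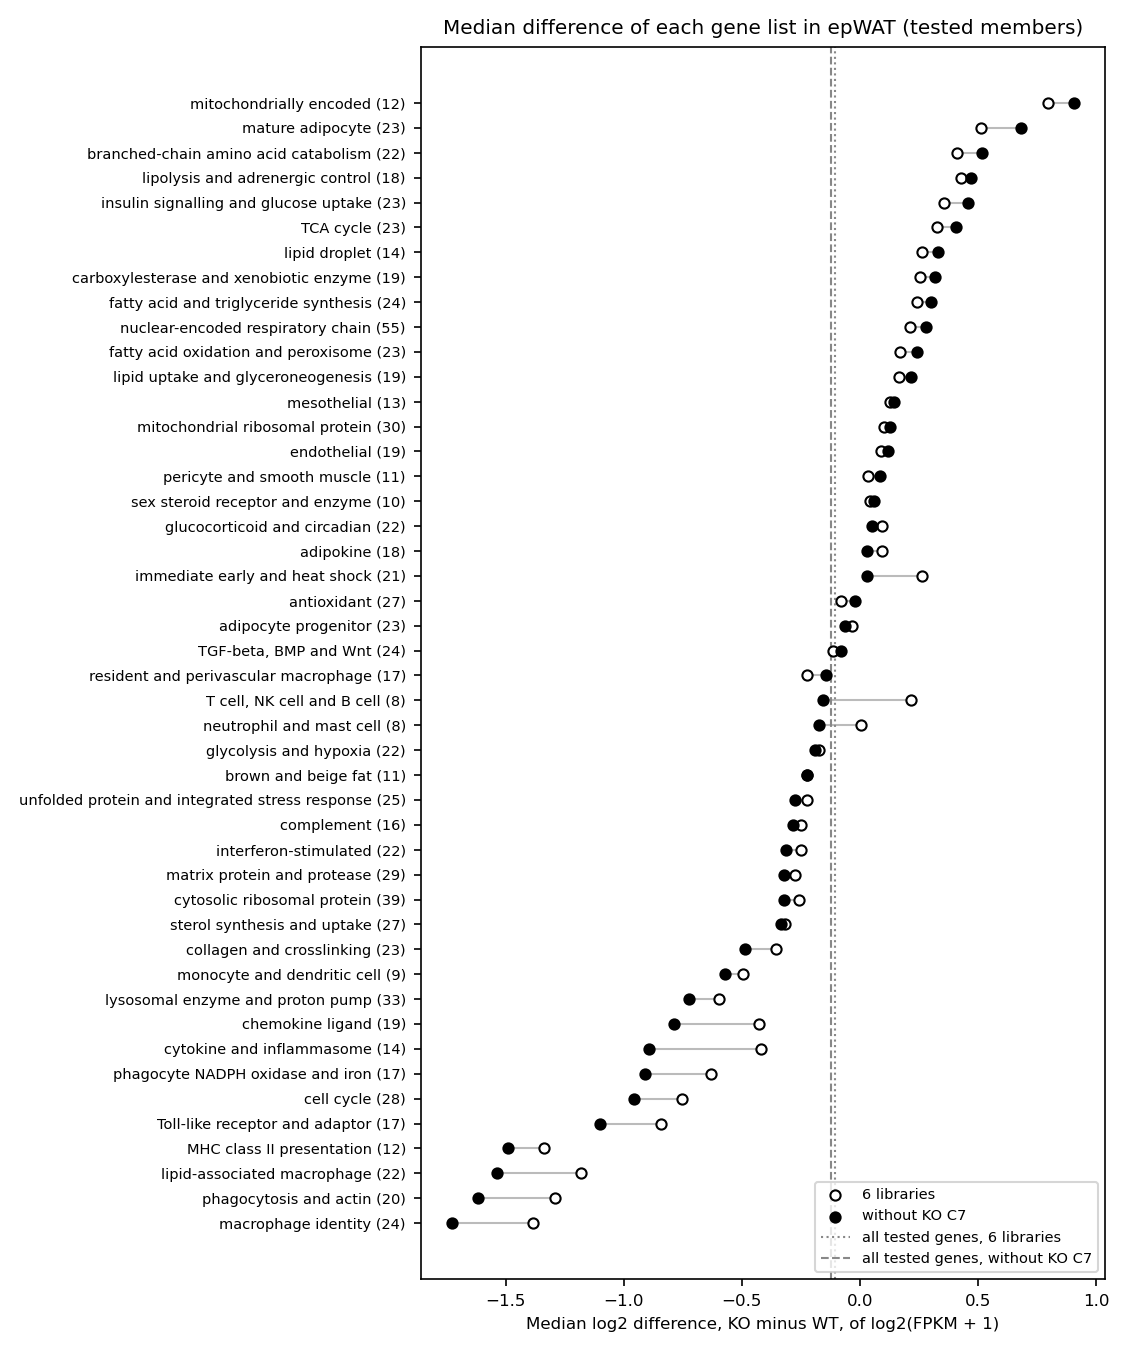
Median log2 difference, KO minus WT, over the tested members of each gene list (number in brackets; lists of 8 or more), with 6 libraries (open) and without KO C7 (filled); the vertical lines are the medians of all tested genes, -0.10 and -0.12. Macrophage, phagocytosis and MHC class II lists lie lowest, from -1.73 to -1.49 without KO C7, and the mitochondrially encoded and mature adipocyte lists highest, at 0.91 and 0.68.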

How the data were processed

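White adipose RNA was extracted with Trizol and sequenced from Illumina libraries, per the labels' protocols; mm9 is the build in the submitters' processing notes, and the aligner, counter, annotation and strand setting are not given in the sources used here. The deposited values are 1 per Ensembl gene and library for 32622 genes, in FPKM as inferred from the values: multiplied by GENCODE M21 (GRCm38) exon lengths and a depth per library they gave whole reads (within 0.01) in all 12 libraries for 92.2% of genes. All but 69 identifiers had an entry in that annotation (32553 matched).

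Genes that reached 1 FPKM in 3 or more of the 6 epWAT libraries (12722) entered limma-trend on log2(FPKM + 1), a scale that understates changes of low genes, with Benjamini-Hochberg adjusted p under 0.05. The same genes were fitted without KO C7. Each library is read as a separate mouse; p-values measure the spread between these libraries. The members, the 52 gene lists (1151 names, 10 unmatched) and the tests were chosen with earlier results of these data known. Named were the targeted gene, the 15 genes of smallest p in either direction and fit (without overlap of KO and WT values for 6 libraries, past the threshold for 5, and predicted-gene symbols left out), up to 6 members per list with the smallest p without KO C7, 31 fixed genes, other-tissue markers, and genes chosen after their values were seen (Gpnmb, Itgax, Cd163, Cxcl1, Mcoln1, Atp6v0d1, Atp6v1a, Gla); some genes that the rule names are not reported here.

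No mouse is shared between KO and WT, so the mouse block was fitted as a random effect with all 12 libraries. Pairing comes from mouse codes shared by both pads; deviations from group means correlated between the pads of a mouse at 0.28 (C99), 0.36 (C85) and 0.42 (C75) in WT and at 0.13 (C695), 0.19 (C34) and 0.01 (C7) in KO. Alternatives were other filters, pseudocounts, scalings and moderation, limma-voom on recovered reads, the added libraries and each library left out. On simulated data for 12722 genes the 6-library procedure recovered 89% of 2-fold and 96% of 4-fold changes with 7 false calls. The 5-library procedure recovered 74% and 93% with 8. Simulated noise was independent between genes and took its spread from the WT libraries alone. The 200 planted changes were kept out of low genes. KO values spread wider than WT in genes such as Cd68 and Gpnmb, so these shares are not the power in these data. Promoter windows are from RefSeq, GRCm38.p6. Tests used limma 3.58.1 and statmod 1.5.0 in R 4.3.3; tables and figures were made in Python 3.11.15 with numpy 2.4.6, pandas 2.3.3 and matplotlib 3.10.9.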

Additional observations from a re-analysis of the deposited data

How the results depend on the processing

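With 6 libraries the count of genes past the threshold was 0, and it was also 0 with no filter, a pseudocount of 0.1, upper-quartile scaling, robust moderation and limma-voom. It was 39 with a filter of 5 FPKM, 29 with a pseudocount of 5, 90 with quantile scaling and 1820 with all other libraries added, where 1856 passed with the mouse as a replicate block. Leaving out single libraries gave 0 to 1744 genes, and the highest count came without KO C7. Without KO C7 the count was 1744, 4 with no filter (27030 genes tested) and 2621 with the replicate block; the remaining settings that kept all 5 libraries gave 1464 to 2475. With 1 more library left out it was 0 to 1562, at 0 without KO C695 or WT C99, 6 without WT C75 and 702 without WT C85. Fits that leave 1 KO library assume that it varies like WT. All 1744 genes kept their sign under each alternative in which they were tested, and 1210 of them passed after upper-quartile scaling. These alternatives reuse the libraries that chose the genes, so the kept signs are not separate support. The causes of these shifts were not tested. KO C695 held a lower level of the transcripts for which KO C7 was left out and stayed in. The smallest adjusted p with 6 libraries was 0.0533. At these depths 1 read in a transcript of 1 kilobase is worth 0.0548 to 0.0666 FPKM, which limits genes near 0 such as 1700093K21Rik.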

Other observations

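Some genes that fell without KO C7 belong to no list described above, and KO C7 differed from the other KO libraries in several. Trac, the constant region gene of the T cell receptor alpha chain, was at 4.07, 1.42 and 1.07 FPKM in KO and 6.34, 5.6 and 7.03 FPKM in WT. Tfr2, a transferrin receptor gene known for iron sensing in liver, was at 5.42, 1.77 and 1.74 FPKM in KO and 6.22, 7.3 and 7.98 FPKM in WT. Ddah1, which degrades inhibitors of nitric oxide synthase, was at 4.25, 1.87 and 1.76 FPKM in KO and 5.43, 5.87 and 5.18 FPKM in WT. Npy, the neuropeptide Y gene, was at 27.0, 0.511 and 0.235 FPKM in KO and 3.99, 2.41 and 2.23 FPKM in WT, so that KO C7 lay above all WT libraries while the gene fell without it.

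The called genes were counted by chromosome. On chromosome 11, which carries 1700093K21Rik, 25 of 1069 tested genes rose and 118 fell without KO C7, where 2.66% of all genes rose and 11.1% fell. On the X chromosome 6 of 406 rose and 63 fell (15.5%). Chromosome 1 had a similar share, with 25 of 717 genes higher and 110 lower (15.3%).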
